A study of Mus musculus with 91 samples.

Results

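The Id proteins and their partners, the E proteins, were followed in 91 single bone marrow progenitors of the mouse. The 6 genes were taken by name from the 23956 symbols of the expression table: Id1, Id2 and Id3, which encode inhibitors of DNA binding, and Tcf3, Tcf4 and Tcf12, which encode the E proteins E2A, E2-2 and HEB. All 6 had a row, and 5 of the 6 passed the limit for a measured gene used here, a value above 0 in 10% or more of either population. Id3 was listed at 0 in every cell, as were 11009 of the 23956 genes when it is counted with them.

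All cells came from C57BL/6 mice of one genotype, Gfi1-R412X/- Irf8+/-, so both groups had 1 R412X and 1 minus allele of Gfi1 and were heterozygous for Irf8. Neutrophil development needs GFI1, a repressor, and monocytes and dendritic cells need IRF8. The 2 groups were 46 cells labelled GMP (granulocyte-monocyte progenitors) and 45 cells labelled CD11b+ GMP-P. Both were described as lacking lineage markers and Sca-1, carrying CD117 and CD34, and high for CD16/32. CD11b is named only in the titles of the second group. The labels give neither age nor sex, and name no animal, so each population counted as 1 sample, cells were not replicates, and no test between populations was possible. Each population carried its own unexplained identifier in the labels, and anything that differs with it cannot be told apart from the population.

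Id and E proteins belong to the helix-loop-helix family. E proteins bind the DNA sequence called an E-box as homodimers or together with partners such as SCL, and in haematopoietic cells they are best known for driving B and T lymphocyte and plasmacytoid dendritic cell development. Id proteins have the dimerization domain but no basic region that binds DNA, so a dimer of an Id and an E protein is held off DNA, and the balance of both kinds sets E-protein activity. Id2 is known for its need in innate lymphoid cells, natural killer cells and some dendritic cells, and Id1 and Id3 are textbook targets of BMP signalling through SMAD proteins. In myeloid progenitors GFI1 has been described as a repressor of Id1 and Id2.

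Because E proteins act through E-boxes and GFI1 through sites with an AATC core, the promoters of the Id gene with the highest level and of the Id gene listed at 0 are shown first. The RefSeq windows of build GRCm38.p6 held 4 of the 6 genes, Id2, Id3, Tcf3 and Tcf12. The 250 bases before the start of each gene are given 5′ to 3′ on the gene's strand, and capitals mark the E-box. The Id2 window is chr12:25096093-25096342 on the minus strand and the Id3 window is chr4:136143572-136143821 on the plus strand.
Id2: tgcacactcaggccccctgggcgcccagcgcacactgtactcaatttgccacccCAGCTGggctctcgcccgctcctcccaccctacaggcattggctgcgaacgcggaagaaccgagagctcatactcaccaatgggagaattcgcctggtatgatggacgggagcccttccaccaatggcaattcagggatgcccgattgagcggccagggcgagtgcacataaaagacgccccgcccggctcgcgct
Id3: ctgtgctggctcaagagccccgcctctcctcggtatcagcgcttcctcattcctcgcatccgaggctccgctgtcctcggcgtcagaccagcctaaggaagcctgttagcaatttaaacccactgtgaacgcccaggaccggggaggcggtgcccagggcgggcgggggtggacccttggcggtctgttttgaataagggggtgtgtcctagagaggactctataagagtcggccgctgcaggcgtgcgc
The motifs searched on both strands were CANNTG, the general E-box, CAGCTG, one form of it, and AATC. The Id2 window held CANNTG once, as CAGCTG, 196 bases before the start, and AATC once, 53 bases before the start. The Id3 window held neither CANNTG nor AATC. Of 32851 windows of the same length, 66.2% held CANNTG, 13% held CAGCTG and 69% held AATC, so the letters alone are common and describe the window only.

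Levels below are log2(TPM + 1), where TPM is the share of a transcript in a fixed total, corrected for its length. Each value is a mean over cells ± SD, and a difference is the mean of the 45 CD11b+ GMP-P cells minus the mean of the 46 GMP cells, called higher or lower from a size of 1 as a description. CD11b+ GMP-P cells had fewer genes above 0 (4112 ± 953 against 5294 ± 801), and a larger share of their TPM in the 50 most abundant genes (48.9% ± 16.1 against 27.3% ± 1.96). Over the 5133 common genes, those found in 50% or more of either population, the median difference was -1.05, so a gene with a difference of 0 stands above most of them. Itgam, which encodes CD11b, was at 0.54 ± 1.37 in GMP and 3.68 ± 2.87 in CD11b+ GMP-P, as its label has it. Of the genes for the other sorted proteins, Kit was lower in CD11b+ GMP-P (3.65 ± 2.84 to 0.90 ± 1.55) and so was Cd34 (7.22 ± 2.80 to 2.55 ± 3.28). Fcgr3, which encodes CD16, was lower too (9.18 ± 1.70 to 6.89 ± 3.30), while Ly6a, which encodes Sca-1, stood at 5.51 ± 2.23 and 5.74 ± 1.59 although both sorts excluded the protein. Gfi1 was at 5.92 in GMP against 3.84 in the CD11b+ cells, and Irf8 at 6.27 and 3.48.

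Among the 10030 measured genes, 246 were higher in CD11b+ GMP-P (2.45%) and 3002 were lower (29.9%). Of the 5 measured Id and E genes, Id2 was higher and Tcf4 was lower, and Id1, Tcf3 and Tcf12 differed by less than 1. The 1 of 5 that was lower is a smaller share than that of all genes, so the count of lower members says nothing particular about them.

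Id2 was the inhibitor with the highest level in both populations. In GMP its lowest, median and highest cells were at 0, 0.60 and 12.27, and in CD11b+ GMP-P at 0, 7.16 and 11.81. The ranges overlapped from end to end, and what differed was the share of cells in the upper part. Id2 reached at least 10 TPM in 15 of 46 GMP cells (32.6%, exact Clopper-Pearson 95% interval 19.5 to 48) and in 31 of 45 CD11b+ GMP-P cells (68.9%, interval 53.4 to 81.8). Intervals here and below cover counting error over cells only. Mean Id2 was 2.65 ± 3.49 in GMP and 5.96 ± 4.21 in the CD11b+ cells. The difference of 3.31 stood 4.36 above the median of the common genes. Of all measured genes, 99.8% had a smaller difference.

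On the linear scale Id2 in GMP rested on few cells. Its mean was 176 TPM against 514 TPM in CD11b+ GMP-P, and the highest GMP cell alone, at 4926 TPM, held 60.7% of the GMP sum. Without that cell the GMP mean was 70.8 TPM. The highest GMP cell also had Cpa3 at 14.21, Gata2 at 11.50 and Mcpt8 at 10.83, genes known from mast cells and basophils, and Elane at 4.08. The next GMP cell for Id2, at 1551 TPM, had Gata2 at 8.73, Cpa3 at 5.23, Mcpt8 at 0 and Elane at 3.66. In CD11b+ GMP-P the highest cell, at 3592 TPM, had Camp, a late granule gene, at 15.18. In a cell listed at 0, a transcript that was missed cannot be told apart from one that was not there.

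Id1 was found in a minority of both populations and at similar peaks. It was above 0 in 16 of 46 GMP cells (34.8%, interval 21.4 to 50.2) and in 12 of 45 CD11b+ GMP-P cells (26.7%, interval 14.6 to 41.9), with medians of 0 and highest cells at 9.05 and 8.96. Mean Id1 was 1.85 ± 3.04 in GMP and 1.22 ± 2.68 in the CD11b+ cells, a difference of -0.63. Of the Id1 TPM, the top 5 cells held 76.6% for GMP and 96.1% for CD11b+ GMP-P, so that the gene was present in scattered cells at a high level. Id3 was at 0 in all cells, which, taken as 3 cells of the total, allows a share of up to 6.52% in GMP and 6.67% in CD11b+ GMP-P for cells with a readable transcript. Id4, the remaining gene of the inhibitor family, was also at 0 in every cell.

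**Figure D1:**
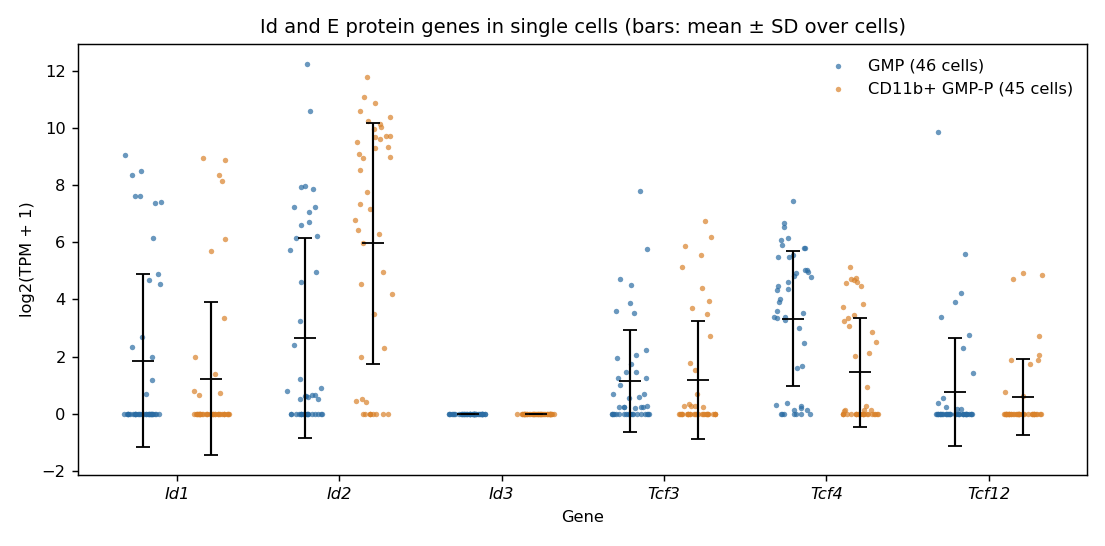
Level of each Id and E gene in every cell (points, log2(TPM + 1)) of GMP and CD11b+ GMP-P, with the mean and SD over cells. Id2 stands at a mean of 2.65 in GMP against 5.96 in CD11b+ GMP-P and Tcf4 at 3.32 and 1.44, while the ranges of cells overlap for every gene and Id3 is at 0 throughout.

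Tcf4, which encodes the E protein E2-2, was the E-protein gene with the highest mean in GMP. Its lowest, median and highest GMP cells were at 0, 3.75 and 7.45, and those of CD11b+ GMP-P at 0, 0.08 and 5.14. The upper ends as well as the medians were lower in CD11b+ GMP-P, although the ranges overlapped. Tcf4 was above 0 in 39 of 46 GMP cells (84.8%, interval 71.1 to 93.7) but in 23 of the 45 CD11b+ cells (51.1%, interval 35.8 to 66.3), and it reached 10 TPM in 25 and 9 cells. Its mean of 3.32 ± 2.36 in GMP compared with 1.44 ± 1.90 in the CD11b+ cells, a difference of -1.88. This was 0.84 below the median of the common genes, and 11.6% of the measured genes had a lower value, so the lower Tcf4 stood less far from the bulk of genes than the higher Id2 did.

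Genes above 0 per cell moved with Tcf4 in one population: Spearman's rank correlation between them was 0.48 over the 45 CD11b+ GMP-P cells and -0.04 over the 46 GMP cells. With Id2 it was -0.40 in CD11b+ GMP-P and -0.04 in GMP, and with Tcf3 0.29 and 0.36. A shared range was set from the 5th percentile of genes detected in GMP to the 95th percentile in CD11b+ GMP-P, 3947 to 5645 genes. Within it Tcf4 was at 3.38 ± 2.54 in 26 GMP cells and 1.85 ± 1.93 in 21 CD11b+ GMP-P cells. In the same cells Id2 was at 2.01 ± 2.996 and 5.35 ± 4.13. Both differences were thus present within this range, in which the populations were not matched for the number of genes. The part of detection in these differences was not tested.

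Tcf3, which encodes E2A, was at nearly the same mean in both populations, 1.14 ± 1.79 in GMP against 1.18 ± 2.07 in the CD11b+ cells, a difference of 0.04. It was above 0 in 27 GMP cells and 18 CD11b+ GMP-P cells, but reached 10 TPM in 7 and 9, so fewer CD11b+ cells held a trace and a like number held a clear level. Its highest cells were at 7.80 and 6.75. The splice forms E12 and E47 of Tcf3 were counted together. Tcf12, which encodes HEB, was the least often seen, above 0 in 13 GMP cells and 10 CD11b+ GMP-P cells, with means of 0.76 ± 1.90 and 0.58 ± 1.33. One GMP cell at 942 TPM held 90.3% of the GMP Tcf12 sum. Mean Tcf12 was 22.7 TPM in GMP against 2.23 TPM in the CD11b+ cells, but 2.24 TPM in GMP without that cell, which was also the GMP cell with the second highest Id2. Tcf7l1 and Tcf7l2, which were once called Tcf3 and Tcf4 and encode unrelated HMG-box proteins, had rows of their own.

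**Figure D2:**
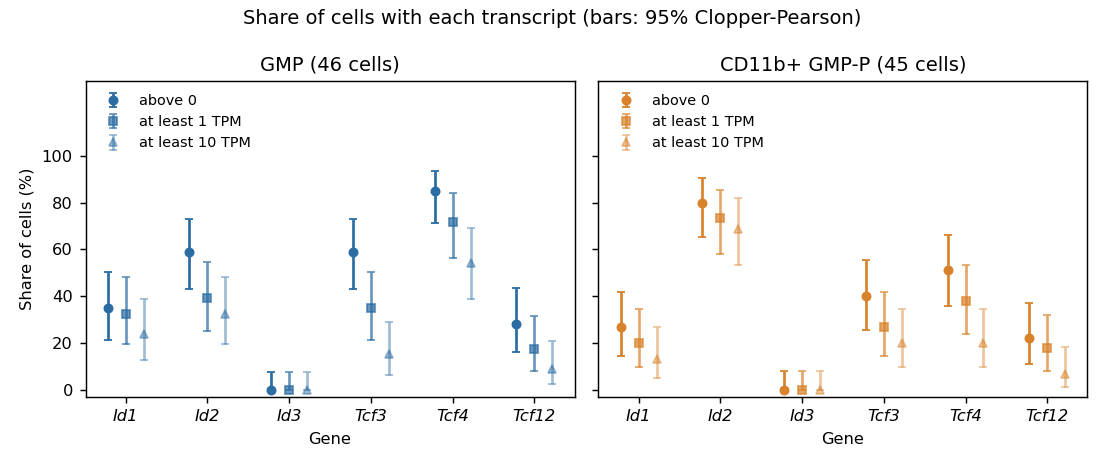
Share of cells (%) in which each Id and E gene was above 0, at least 1 TPM or at least 10 TPM, with exact 95% intervals over 46 GMP cells and 45 CD11b+ GMP-P cells. At 10 TPM Id2 is in 32.6% of GMP and 68.9% of CD11b+ GMP-P cells and Tcf4 in 54.3% and 20%, and Tcf3 in GMP is in 58.7% above 0 and 15.2% at 10 TPM.

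Summed over the family, the level of inhibitors relative to E proteins was higher in CD11b+ GMP-P. For each cell the ratio was taken as log2 of summed Id TPM plus 1 over summed E-protein TPM plus 1. In GMP the ratio ran from -6.63 over a median of 0.48 to 12.27, and in CD11b+ GMP-P from -6.78 over 4.46 to 11.11. Cells at both extremes were present in each population. Its mean was -0.17 ± 4.57 for GMP and 3.61 ± 5.10 for the CD11b+ cells, a difference of 3.77. Id transcripts exceeded E-protein transcripts in 25 of 46 GMP cells (54.3%, interval 39 to 69.1) and in 35 of the 45 CD11b+ cells (77.8%, interval 62.9 to 88.8).

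Both sides of the ratio contributed. For the Id sum the median was 7.01 TPM in GMP against 163 TPM in CD11b+ GMP-P, and that of the E-protein sum was 20.9 TPM and 3.56 TPM. Cells in which the inhibitors were at least 10-fold above the E proteins numbered 11 for GMP and 26 for CD11b+ GMP-P, and cells with the reverse numbered 18 and 5. A single GMP cell and 12 CD11b+ GMP-P cells had no E-protein transcript. On the inhibitor side Id2 made up 79.4% of the Id TPM for GMP and 93.1% for CD11b+ GMP-P. The GMP share rested on its highest cells, being 60.2% without the highest Id2 cell and 43.7% without the top 2. Among the E proteins, Tcf4 was the highest of the 3 in 32 GMP cells and 17 CD11b+ GMP-P cells, and Tcf3 in 10 and 11 cells. This is a ratio of transcripts, and protein was not measured.

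**Figure D3:**
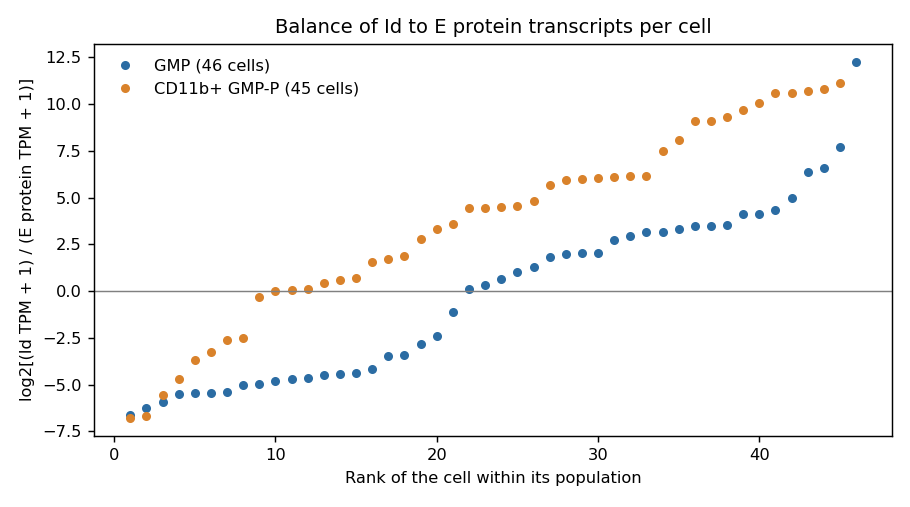
Ratio of summed Id to summed E-protein transcripts per cell, log2[(Id TPM + 1)/(E TPM + 1)], with cells ordered by rank within GMP and CD11b+ GMP-P and a line at 0. The 46 GMP cells spread around a median of 0.48 and the 45 CD11b+ GMP-P cells around 4.46, with 21 and 9 cells below 0.

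Id2 and Tcf4 were seldom high in the same GMP cell. At 10 TPM, 12 GMP cells had Id2 alone, 22 had Tcf4 alone, 3 had both and 9 had neither. Tcf4 was thus found in 3 of the 15 GMP cells with Id2 (20%, interval 4.33 to 48.1) and in 22 of the 31 cells without it (71%, interval 52 to 85.8). The mean of Tcf4 was 1.81 ± 2.13 in the former and 4.05 ± 2.13 in the latter. Without the 4 GMP cells of the cluster lowest in Elane, Tcf4 was in 2 of 13 cells with Id2 (15.4%) and in 21 of 29 without (72.4%). Among the 26 GMP cells of the shared range it was in 0 of 7 and 14 of 19 (73.7%). At the lower limit of above 0 the split was weaker, with Tcf4 in 22 of 27 cells with Id2 and 17 of 19 without, and Spearman's rank correlation over the 46 cells was -0.28, also after the number of genes detected was regressed out.

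The CD11b+ GMP-P cells showed no such split. There Tcf4 reached 10 TPM in 6 of 31 cells with Id2 (19.4%, interval 7.45 to 37.5) and in 3 of 14 cells without it (21.4%, interval 4.66 to 50.8), and the rank correlation was -0.07, or 0.15 after the number of genes detected was regressed out. The intervals are wide, since only 9 of these cells had Tcf4 at that level. The difference between the populations in this pattern was not tested.

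In CD11b+ GMP-P all 6 cells with Id1 at 10 TPM also had Id2 at that level (interval 54.1 to 100). So did 25 of the other 39 (64.1%, interval 47.2 to 78.8), and the intervals overlapped. The rank correlation between Id1 and Id2 there was 0.20, or 0.11 after the number of genes detected was regressed out. In GMP 4 of the 11 cells with Id1 had Id2. Tcf3 was read beside Gfi1, which the E protein E2A is known to activate in lymphoid cells. At 10 TPM Gfi1 was in 7 of 7 GMP cells with Tcf3 (interval 59 to 100) and 29 of 39 without, and in 8 of 9 CD11b+ GMP-P cells with Tcf3 (88.9%, interval 51.8 to 99.7) and 15 of 36 without (41.7%, interval 25.5 to 59.2). The rank correlation between Tcf3 and Gfi1 was 0.19 for GMP and 0.41 for CD11b+ GMP-P, and 0.14 and 0.33 after the number of genes detected was regressed out. Tcf3 followed the progenitor genes Cd34 (0.41 in GMP, 0.38 in the CD11b+ cells) and Kit (0.31 and 0.36) about as closely or more so.

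Split by Gfi1 at 10 TPM, Id2 was at 1.98 ± 2.95 in the 36 GMP cells with Gfi1 and at 5.05 ± 4.37 in the 10 without. Those 10 included the 2 GMP cells with the most Id2, and the other 8 were at 3.46 ± 3.13. Split at above 0, Id2 in GMP was at 2.64 with Gfi1 and 2.70 without, so the gap depended on the limit and on those cells. In CD11b+ GMP-P, Id2 was at 5.01 ± 4.21 in 23 cells with Gfi1 at 10 TPM and at 6.96 ± 4.06 in 22 without. These SDs were about as large as the gaps or larger. Split by Irf8 at 10 TPM, Id2 was at 4.42 ± 4.28 in 18 CD11b+ GMP-P cells with Irf8 and 6.99 ± 3.91 in 27 without. In GMP it was at 2.31 ± 2.95 in 35 cells with Irf8 and 3.73 ± 4.87 in 11 without. Without the same 2 cells the latter was 2.01 ± 3.36, below the cells with Irf8. All cells had one genotype, so no value here compares Gfi1 or Irf8 alleles. No cell had a wild-type Gfi1 allele. Gfi1 TPM, here and beside Tcf3, is thus transcript of the altered gene and does not report GFI1 activity.

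Within CD11b+ GMP-P, Id2 went with late granule genes. Clustering of these cells without the Id and E genes and without cell cycle genes gave 2 clusters. One of 22 cells had Elane, a primary granule gene, at 7.10 ± 4.21 and the secondary granule gene Camp at 15.68 ± 0.47, with Ngp at 15.89 and S100a8 at 17.22. The other 23 cells had Elane at 14.14 ± 1.18 and Camp at 7.08 ± 4.38. Of the sort genes, Cd34 reached 10 TPM in 0 of the 22 cells and in 14 of the 23, and Kit in 1 and 2. Id2 was above 0 in 22 of 22 cells of the first and at 7.77 ± 3.50, and in 14 of 23 cells of the second at 4.24 ± 4.17. Mean Id2 in the second cluster was above the GMP mean of 2.65. Camp in that cluster ran from 2.68 over a median of 4.59 to 16.12, so some of its cells were high in Camp too. Its Id2 mean therefore does not describe the CD11b+ GMP-P cells low in Camp, which were not taken apart.

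Id1 was above 0 in 9 of the 22 late granule cells and 3 of the 23 others, with means of 1.66 and 0.81. Tcf4 was above 0 in 7 and 16, at 0.83 ± 1.52 and 2.02 ± 2.06, and Tcf3 in 6 and 12, at 0.99 and 1.36, although it reached 10 TPM in 4 and 5. Tcf12 was at 0.61 and 0.55. The ratio of inhibitors to E proteins was above 0 in 22 of 22 late granule cells, with a mean of 5.99 ± 3.75, and in 13 of the 23 others (56.5%), with a mean of 1.32 ± 5.24. That second share was close to the 54.3% of GMP. The late granule cells had 3406 ± 621 genes above 0 and the others 4787 ± 687, and the part of this difference in the lower E-protein levels was not tested. Clustering on 1000 variable genes instead of 500 put 14 cells, all among the 22, into the late cluster, with Id2 at 7.72 against 5.17 in the remaining 31, and 5 principal components gave 15 cells, with Id2 at 7.89.

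Cell by cell, the rank correlation between Id2 and Camp was 0.53 over the 45 CD11b+ GMP-P cells and 0.40 after the number of genes detected was regressed out, and between Id2 and S100a8 0.53 and 0.38. With Elane it was -0.45 and -0.22. In GMP, where Camp stays low, the same values were -0.07 for Camp, -0.12 for S100a8 and -0.04 for Elane. These describe cells of 1 sample, each scaled to the same TPM total.

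**Figure D4:**
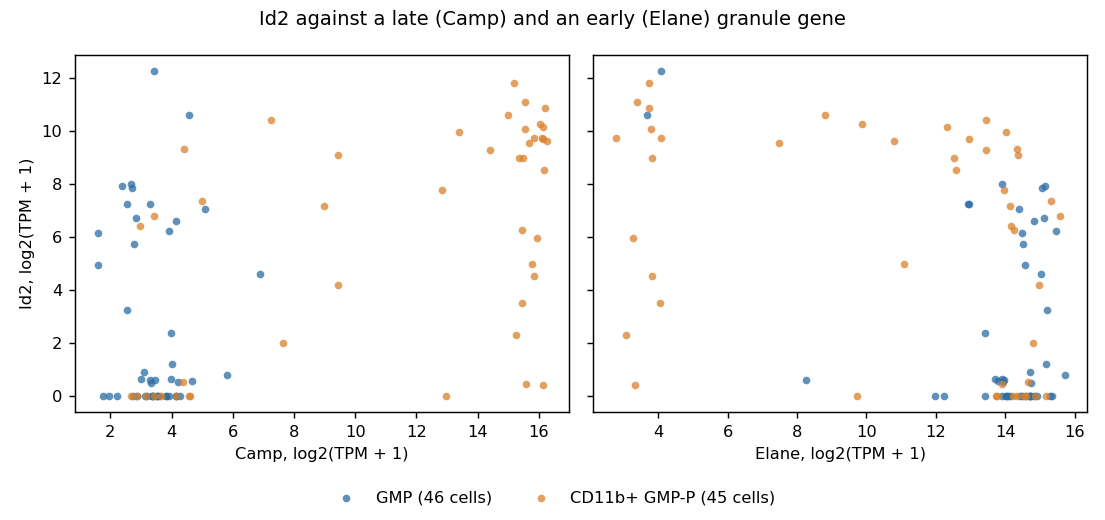
Level of Id2 against Camp and against Elane in each cell, all as log2(TPM + 1), for 46 GMP and 45 CD11b+ GMP-P cells. Most CD11b+ GMP-P cells with Camp above 14 have Id2, while GMP cells stay at low Camp with Id2 anywhere between 0 and 12.27.

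The smaller of 2 GMP clusters, which held 3 cells with 1000 variable genes and 8 with 5 principal components, had 4 cells with Elane at 7.47 ± 4.76 and 3442 ± 599 genes above 0. Its Id2 was at 5.87 ± 6.47 against 2.34 ± 3.04 in the other 42 GMP cells, and only 2 of the 4 reached 10 TPM, the 2 cells with Gata2 and Cpa3 described above. Tcf4 was at 3.27 in these cells and 3.33 in the others, Tcf12 at 2.57 and 0.59, and Tcf3 was at 0 in all 4.

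The genes whose level followed each member most closely within a population were ranked by Spearman's rank correlation, for members above 0 in at least 50% of its cells. In CD11b+ GMP-P, among 3313 genes, those nearest to Id2 were Lcn2 (0.62), S100a9 (0.60) and Chil3 (0.60), all genes of late neutrophil granules or cytosol, and Hmgb2 (0.56), which encodes a chromatin protein abundant in dividing cells. Once the number of genes detected was regressed out they were Litaf (0.55), Ccnb2 (0.55), Hmgb2 (0.55) and Cenpe (0.52), of which Ccnb2 and Cenpe act in mitosis. Those nearest to Tcf4 in this population were Actr10 (0.61), Uba2 (0.57), Nudt21 (0.55) and Serinc3 (0.55). Tcf4 itself followed the number of genes detected here, and after regression its nearest genes were Actr10 (0.49), Cdc7 (0.46), Cdca4 (0.45) and Celf1 (0.43). In GMP, among 5000 genes, Id2 was nearest to Ppp1r12b (0.57), Cherp (0.55), Inpp4a (0.47) and Marf1 (0.46). Tcf3 was nearest to Abcc4 (0.62), Eif4e (0.55), Nav2 (0.54) and 0610009O20Rik (0.54), and Tcf4 to Hibadh (0.50), Ggps1 (0.47), Pcnp (0.45) and Naca (0.45). These are the highest of 3313 or 5000 values over 45 or 46 cells, with no test behind them.

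The genes around Id and E proteins were read from 6 lists, against the 2.45% higher and 29.9% lower of all measured genes and their median difference of -0.50. In these and the marker lists below, counts of genes at 0 in every cell stand beside 11009 of all 23956 genes. Of the helix-loop-helix partners and the LMO2 and LDB1 complex that E proteins join, 8 of 12 were measured, none was higher and 3 were lower, with a median of -0.72. Those 3 were Ssbp3 (-1.78), Lyl1 (-1.33), an alternative partner to SCL, and Lmo2 (-1.27), the bridging adaptor. Of the corepressors and coactivators that E proteins recruit, 12 of 13 were measured, none was higher and 4 were lower, with a median of -0.80: Hdac3 (-1.73), the ETO family genes Cbfa2t2 (-1.58) and Cbfa2t3 (-1.47), and Kat2a (-1.14). Both lists had lower shares near or somewhat above that of all genes.

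Upstream of the Id genes, BMP and TGF-beta signalling was the list with the smallest differences: 13 of 19 genes were measured and none differed by 1, with a median of -0.18. The widest were Smad4 (-0.90), the shared mediator, Smad5 (-0.78) and Smad1 (-0.55), which BMP receptors activate. Most of the 13 measured genes had a GMP mean below 1, and such a gene cannot be lower by 1. Of the genes for turnover of Id and E proteins, 8 of 9 were measured and 3 were lower, among them Cops5 (-2.22), a subunit of the COP9 signalosome, and Skp2 (-1.21), a ubiquitin ligase subunit. Usp1, a deubiquitinase known to stabilise Id proteins, stood at 0.81 above GMP. The list's median was -0.45.

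Of 21 genes that E proteins are known to activate, many of them lymphoid, 9 were measured, none was higher and 2 were lower, Gfi1 (-2.08) and Cd79b (-2.04), with a median of -0.36. Rag1, Dntt, Ebf1, Cd79a, Il7r and Socs3 were among the 7 at 0 in every cell. Cxcr4, a chemokine receptor gene, was above 0 in 40 GMP and 43 CD11b+ GMP-P cells, and Ptcra, a lymphoid receptor gene, in 38 and 31. The list of RB proteins, D cyclins and CDK inhibitors, included because Id2 binds RB proteins and E proteins act on CDK inhibitor genes, was the list with members higher as well as lower: of 12 measured of 15, 2 were higher and 3 lower, with a median of -0.30. Ccnd3 went from 3.74 to 6.70 (2.96 higher) and Cdkn2d, which encodes the inhibitor p19, from 3.11 to 5.29 (2.18 higher). Cdk4 went from 8.75 to 4.69 (-4.06), Ccnd2 from 4.10 to 0.93 (-3.17), and Cdk6 was also lower (-1.38).

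Markers of the other cell types known for these factors were read beside Tcf4 and Id2. For plasmacytoid dendritic cells, the type that Tcf4 is known to specify, 6 of 14 markers were measured, none was higher and 3 were lower in CD11b+ GMP-P: Ptprs (4.25 ± 2.21 to 1.06 ± 2.07), Bst2 (3.75 to 0.84) and Runx2 (2.03 to 0.89). Their summed TPM had a median of 117 (0 to 675) in GMP and 4.23 (0 to 987) in CD11b+ GMP-P. Siglech, a defining marker, was near 0 in both (0.05 and 0.04), and Ly6d, Pacsin1, Cox6a2 and Klk1 were at 0 in every cell. The part of this list in the Tcf4 difference was not tested.

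For conventional dendritic cells, 4 of 14 markers were measured and none differed by 1. H2-Ab1, the most abundant, was at 1.36 ± 2.31 in GMP against 0.52 ± 1.55 in the CD11b+ cells, and Xcr1 was above 0 in 18 and 17 cells. Batf3, Itgax, Cd74, H2-Aa, Cd209a, Irf4 and Ciita were at 0 in every cell, and the sum had a median of 1.63 TPM (0 to 369) in GMP and 0.13 TPM (0 to 233) in CD11b+ GMP-P. For innate lymphoid and natural killer cells, 1 of 11 was measured (Nfil3, -0.52) and 8 were at 0, Il7r, Il2rb, Ncr1, Eomes and Tbx21 among them. For B and T lymphocytes, 4 of 14 were measured, Cd79b alone was lower and 10 were at 0. The part of these types in the Id2 difference was not tested.

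Mast cell, basophil and eosinophil genes were read in the same way, and some of them were high in the 2 GMP cells with the most Id2, as given above. Of 11, 7 were measured, none was higher and 3 were lower in CD11b+ GMP-P, and the sum had a median of 462 TPM (0.18 to 24458) in GMP and 17 TPM (0 to 131312) in CD11b+ GMP-P. The highest CD11b+ GMP-P cell thus exceeded every GMP cell on this sum, which the differences in means do not show. Hdc, the list's most abundant gene, went from 7.06 ± 3.07 to 4.42 ± 3.73. Of 12 macrophage markers 5 were measured and 2 were higher, Slc40a1 among them (1.04), while the other 3 stood below GMP by less than 1. The macrophage markers C1qa, C1qb, C1qc, Mertk and Spic were at 0 in every cell. Of 12 monocyte markers 10 were measured, and 1 was higher, Lgals3 (3.84). The 4 that were lower were F13a1 (-3.83), Ms4a6c (-3.12), Ccr2 (-2.93) and Irf8 (-2.79). The other 5 differed by less than 1, among them Ly6c2, the most abundant (-0.09). Of 14 erythroid and megakaryocyte markers 2 were measured and neither differed by 1, Tfrc being the more abundant (-0.95).

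Of the granule lists, 9 of 9 measured primary granule genes were lower, Elane with a difference of -3.06, and 11 of 12 measured secondary granule genes were higher, S100a8 with a difference of 6.63. Those shares lie far from the 29.9% and 2.45% of all genes, and the cells' granule state moved with Id2 both between the populations and within CD11b+ GMP-P. Its part in the Id2 difference was not tested.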

How the data were processed

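The authors deposited 1 table of log2 values for 23956 genes in 91 cells. Returned to a linear scale with a pseudocount of 1, each cell summed to 999999 to 1000076, so the values were read as log2(TPM + 1). RSEM (version unstated) and the build mm9 are named, per the submitters' processing notes. For the aligner and annotation, the sources used here give nothing. Per the labels' protocols, marrow was enriched for CD117, sorted and captured on a Fluidigm C1 chip, and libraries were made with SMARTer and Nextera XT, kits without molecular identifiers or strand marks. TPM keeps no read depth, so the depth is unknown, and precision is described by genes above 0 per cell. No 2 cells were alike (highest correlation 0.736), no cell was left out and no doublet caller was run.

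Means, SDs and exact 95% Clopper-Pearson intervals were taken over cells, and no p-value was made. Clustering ran in each population alone (the 500 genes of highest variance found in 20% or more of its cells, 10 principal components, Ward linkage, 2 to 5 clusters by silhouette), without the 6 members and cell cycle genes. Besides the members, Id4, Gfi1, Irf8 and the sort genes, the text names up to 4 measured genes of each pathway list with the widest differences, the most abundant gene of each marker list and markers at 0, the 4 genes most like each member in rank, and a few granule genes. Cdk6, Bst2, Runx2, Siglech, Xcr1, Cpa3, Gata2, Mcpt8, Lgals3, F13a1, Ms4a6c and Ccr2 were named after their values were seen. Members and lists were chosen with earlier results of these data known. Promoters came from a RefSeq table of another build than the files, so no coordinate of the files is used. Python 3.11.15, numpy 2.4.6, pandas 2.3.3, scipy 1.17.1, scikit-learn 1.9.0 and matplotlib 3.10.9 were used, and the calculation was tested on simulated data. A few list members are not reported here.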

Additional observations from a re-analysis of the deposited data

How the results depend on the processing

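Alternatives were pseudocounts of 0.1 and 10, the median over cells, the log2 ratio of mean TPM, other scalings, restrictions on the genes detected, and leaving out the clusters lowest in Elane. The Id2 difference was above 1 under all 11 (1.54 to 6.56, against 3.31). It was lowest with the ratio of mean TPM (1.54) and without the lowest-Elane cluster of CD11b+ GMP-P (1.59). The Tcf4 difference was below 0 under all 11, but reached -0.87 with a pseudocount of 10, where it no longer passed the size of 1. The Id1 difference, -0.63, was -1.04 without the lowest-Elane cluster of CD11b+ GMP-P and -1.04 without the lowest-Elane clusters of both populations, an alternative added after seeing the data. The Tcf12 difference, -0.18, was -3.34 with the ratio of mean TPM, where 1 GMP cell held most of the sum. Tcf3 stayed between -0.31 and 0.30. The difference in the ratio of Id to E-protein transcripts ran from 1.49 to 5.04 over 10 alternatives. With scaling by median of ratios the median of common genes was -0.60 instead of -1.05. Clustering on 1000 variable genes gave 14 cells in the lowest-Elane cluster of CD11b+ GMP-P instead of 22. The GMP cluster lowest in Elane had 4 cells, and 3 or 8 under the other settings. Id2 in GMP cells without minus with Irf8 was 1.42, and -0.30 without the 2 GMP cells highest in Id2, also added after seeing the data. The directions of the differences between populations called here were not reversed. No paired analysis was possible because the populations share no replicate number. The unknown depth, the zeros and a single sample per population limit every value here to a description of these cells.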
